A study of Mus musculus with 6 samples.

Results

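The mitochondrial ribosomal proteins are the protein subunits of the ribosome that works inside mitochondria. They were taken as every gene of the deposited brown fat table whose symbol starts with Mrpl or Mrps, which gave 77 of the 19241 genes listed. All 77 passed the filter on low values and were among the 13331 genes tested. RNA was sequenced in bulk from the whole interscapular brown adipose depot of newborn mice. There were 3 libraries from mice with the genotype Fstl1-floxed, called WT, and 3 from mice with the genotype Myf5-Fstl1 KO, in which Fstl1 was removed in the Myf5 lineage, called KO. Fstl1 encodes a secreted follistatin-like glycoprotein, and the series asks what its loss in this lineage does to brown fat. The Myf5 lineage gives rise to skeletal muscle as well as brown fat, so the deletion is not limited to adipocytes, and the depot also holds cells outside the lineage. The labels do not say whether the floxed controls carried a Cre allele, nor whether the libraries of a group came from separate animals, so p-values measure only the spread between these libraries.

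The mitochondrial ribosome translates the few messages encoded by mitochondrial DNA, which specify core subunits of the respiratory chain and the ATP synthase. Its RNAs are made in the organelle, while its proteins are encoded in the nucleus, made in the cytosol and imported. Some of these proteins have kin in the bacterial ribosome and others are found in mitochondria only. Brown fat is rich in mitochondria and burns fuel to make heat through the uncoupling protein Ucp1, so its respiratory chain depends on both genomes.

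By symbol, 48 of the 77 genes start with Mrpl and 29 with Mrps. By the place of the protein, 50 belong to the large subunit and 26 to the small subunit. In the large subunit, 30 were classed as having bacterial kin and 20 as specific to mitochondria. The corresponding numbers in the small subunit are 16 and 10. Mrps18a and Mrps18b were counted as specific to mitochondria, although they are homologous to Mrps18c, which was counted with bacterial kin. These classes are therefore not a strict split by kinship. Names and places differ in 3 cases. Mrps18a and Mrps30 encode proteins that sit in the large subunit, and Mrps36 encodes a part of the 2-oxoglutarate dehydrogenase complex and was counted with neither subunit.

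Promoter windows of some of the genes are shown for a sequence that a part of the members carry, the core of ETS sites. ETS factors include GABP, also called NRF-2, a regulator of nuclear genes for mitochondrial proteins. RefSeq windows from 250 bases before to 50 bases after the start (assembly GRCm38.p6) were matched for 68 of the 77 genes, which gave 74 windows. The letters CCGGAAG were searched on both strands. They were found in 25 windows of 25 genes, which is 33.8% of the windows, against 16.9% of the 13280 windows of tested genes and 8.86% of all 32851 windows. Only bases upstream of annotated exons are printed, 5′ to 3′ on the gene's own strand, with the CCGGAAG match in capitals. Mrpl43 (minus strand, chr19:45006443-45006557) holds 2 matches, which begin 56 and 12 bases before the start. Mrps22 (minus strand, chr9:98601680-98601929) holds 1, which begins 11 bases before the start. Mrpl22 (plus strand, chr11:58171414-58171660) holds 1 that begins 53 bases before it, followed by an NRF1 core (GCATGCGC on the other strand, also in capitals) from 33 bases before it, and Mrpl17 (minus strand, chr7:105811100-105811337) holds 1 that begins 237 bases before it. These are the 4 with the smallest p-values between genotypes among the 8 windows with a match in such a stretch. Mrps2 (plus strand, chr2:28467816-28468065), the gene with the smallest p-value of all 77, holds none.
Mrpl43: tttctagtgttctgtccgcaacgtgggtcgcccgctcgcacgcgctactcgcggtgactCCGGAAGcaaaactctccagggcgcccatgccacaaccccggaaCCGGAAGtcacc
Mrps22: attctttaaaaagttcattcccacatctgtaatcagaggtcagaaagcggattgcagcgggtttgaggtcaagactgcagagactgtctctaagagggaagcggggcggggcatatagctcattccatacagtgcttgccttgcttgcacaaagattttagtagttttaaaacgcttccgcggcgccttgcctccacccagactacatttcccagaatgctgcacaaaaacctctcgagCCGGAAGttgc
Mrpl22: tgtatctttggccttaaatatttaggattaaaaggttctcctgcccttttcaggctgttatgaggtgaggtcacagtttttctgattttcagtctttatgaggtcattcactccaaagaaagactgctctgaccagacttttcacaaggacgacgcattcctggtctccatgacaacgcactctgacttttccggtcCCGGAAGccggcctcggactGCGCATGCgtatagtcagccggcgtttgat
Mrpl17: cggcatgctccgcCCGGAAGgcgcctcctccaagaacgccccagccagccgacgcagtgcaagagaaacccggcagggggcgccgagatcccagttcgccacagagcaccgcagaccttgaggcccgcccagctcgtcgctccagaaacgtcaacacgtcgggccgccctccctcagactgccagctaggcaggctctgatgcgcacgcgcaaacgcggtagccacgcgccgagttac
Mrps2: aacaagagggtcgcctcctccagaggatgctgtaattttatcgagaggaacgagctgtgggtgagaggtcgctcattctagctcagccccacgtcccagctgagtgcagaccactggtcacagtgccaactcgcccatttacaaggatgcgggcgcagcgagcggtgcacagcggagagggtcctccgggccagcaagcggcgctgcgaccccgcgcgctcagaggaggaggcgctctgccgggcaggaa

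The other motifs searched, on both strands, were found in fewer windows. The core GCATGCGC of sites for NRF1, a regulator of genes for respiration, was in 8 windows, among them that of Mrpl32 (10.8%, against 4.97% of windows of tested genes). The YY1 core AAGATGGC was in 12 windows (16.2%, against 4.31%), among them that of Mrpl42. The E-box CACGTG, which MYC and other factors bind, was in 7 windows of 5 genes (9.46%, against 9.72%). The ERR letters TCAAGGTCA were in none of the 74 windows and in 0.264% of the windows of tested genes. None of these motifs holds another of them whole. Between genotypes, the 25 genes with CCGGAAG had a median log2 fold change of −0.21 and the 43 matched genes without it −0.14. The medians with and without the YY1 core were −0.26 (12 genes) and −0.14 (56 genes). For the E-box they were −0.27 (5) and −0.16 (63), and for the NRF1 core −0.13 (8) and −0.16 (60). Differences between these medians were not tested. The motif matches describe letters in these windows and not binding.

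Before the levels are given, the libraries need a word. FPKM sums lay between 486449 and 556968 per library, with 17012 to 17352 genes above 0, and steps in low values put the depth at about 13900000 to 15150000 reads, at which a member's value rested on an estimated 229 reads (Mrps11, in its lowest library) or more. Fstl1 fell, from 55.5, 130 and 54.4 FPKM in WT to 7.93, 13.1 and 8.77 FPKM in KO (log2 fold change −2.79 ± 0.33 SE, limma adjusted p = 0.00979, or 0.0606 without the filter on low values). The sex of the libraries coincided with genotype: Xist was at 44.8 to 85.5 FPKM in WT and at most 0.92 in KO, while the Y-linked Eif2s3y was at 83.7 to 99.3 FPKM in KO and at most 0.08 in WT, so genotype and sex cannot be told apart. All 13 brown adipocyte markers were detected, with sums of 21795 to 27550 FPKM in WT and 21185 to 23027 in KO. The test called 2 of these markers lower in KO (Elovl3 and Plin1), beside 1.01% of all genes tested. Most of each sum was Fabp4, which averaged 15423.5 FPKM. KO lay wholly below WT in 5 of the 13 (11.4% of all genes tested) and wholly above in 0. Ucp1 was among the 5, at 4366, 6124 and 6255 FPKM in WT and 2902, 1695 and 3592 in KO. Its log2 fold change was −1.08 (limma adjusted p = 0.0804). Prdm16 (−0.87, 0.0519) and Ebf2 (−1.09, 0.0917) likewise did not pass the test. The 18 skeletal muscle markers summed to 447 FPKM in KO replicate 1 and to 1674 to 2451 in the other libraries, and the 12 erythroid markers to 14404 FPKM in WT replicate 3 and to 3077 to 5074 in the others. The 12 macrophage markers summed to 146 to 214 FPKM in WT and 201 to 278 in KO, 12 endothelial markers to 630 to 841 and 655 to 735, 10 Schwann cell markers to 74.4 to 79.5 and 60.6 to 86.9, and 9 epidermal markers to 4.81 to 6.75 and 4.14 to 6.67. No marker of these lists was at 0 in every library.

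Every mitochondrial ribosomal protein gene was expressed in every library. Levels are in FPKM, fragments scaled to transcript length and to the mapped fragments of a library, which allows genes to be compared per length. The mean over the 6 libraries ran from 10.2 to 376 FPKM with a median of 61.9, a 37.1-fold range, and 13 genes lay above 100 FPKM and 6 below 20. The 77 genes together made up 1.02% to 1.21% of the FPKM of a library. The 4 genes with the highest means, Mrpl42, Mrpl30, Mrps36 and Mrps21, held 19.7% of the members' sum.

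Mrpl42, a mitochondria-specific protein of the large subunit, was at 326, 382 and 439 FPKM in WT and 374, 394 and 344 in KO. Mrpl30, with bacterial kin, was at 301, 299 and 321 FPKM in WT and 318, 388 and 305 in KO. These 2 genes overlapped each other only in KO, where their ranges met, and both lay above every other member in every library. Mrps36, the dehydrogenase component, was at 197, 248 and 309 FPKM in WT and 216, 220 and 239 in KO. RefSeq lists 3 pseudogenes of Mrps36 and 1 each of Mrpl23, Mrpl27 and Mrpl48, and how reads shared with such copies were counted is not stated, so the levels of these 4 genes are uncertain. Mrps21, a small-subunit protein with bacterial kin, was at 149, 203 and 252 FPKM in WT and 190, 188 and 152 in KO. The spread within WT was wider than the gap between these 2 genes.

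At the low end stood Mrpl19, Mrps25, Mrpl17 and Mrpl57. Mrps25, a mitochondria-specific small-subunit protein, was at 9.92, 12.2 and 12.5 FPKM in WT and 11.3, 10.4 and 9.38 in KO. Mrpl17, a large-subunit protein with bacterial kin, was at 13.5, 13.6 and 15.4 FPKM in WT and 13.1, 12.5 and 10.3 in KO. Mrpl57, a mitochondria-specific large-subunit protein, was at 10.9, 16.7 and 21.1 FPKM in WT and 13.3, 14.0 and 14.5 in KO. Mrps25 lay below Mrpl17 and Mrpl57 in each of the 6 libraries, while Mrpl17 was above Mrpl57 in WT replicate 1 and below it in others, so the order of these 2 is not fixed. The plot of levels shows this order with the 6 values of each gene.

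**Figure D1:**
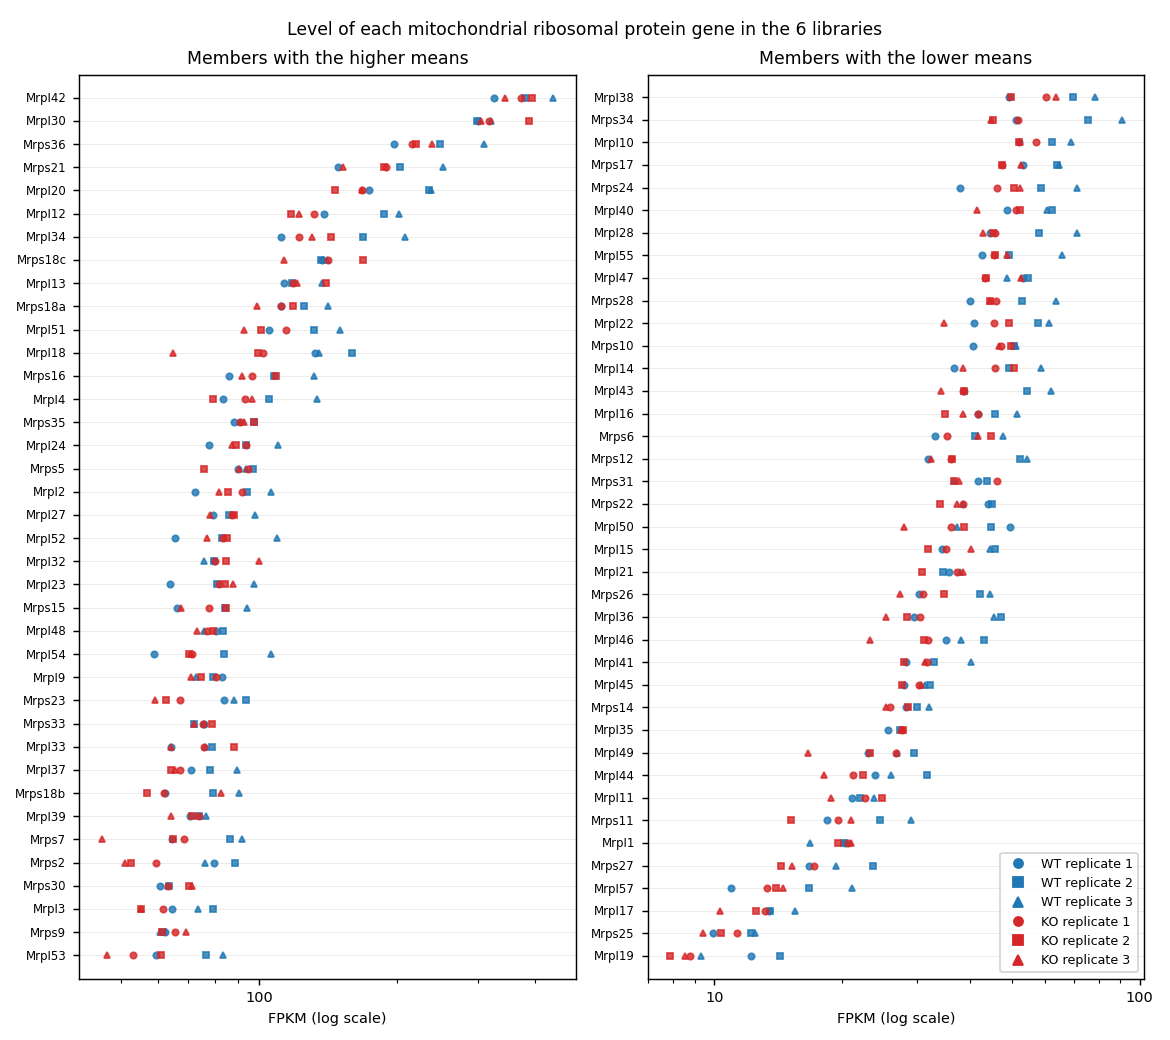
FPKM (log axis) of each of the 77 genes in the 6 libraries, in order of the mean over all libraries, with the higher means on the left and the lower on the right (blue WT, red KO, symbols mark the replicate). Means run from 376 FPKM for Mrpl42 to 10.2 FPKM for Mrpl19, and in most genes the WT values spread more widely than the KO values.

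The loss of Fstl1 was compared with the floxed control to see how the ribosome's genes stood in the KO depot. No mitochondrial ribosomal protein gene passed the test in either direction, and most had lower means in KO. The log2 fold change, on the log2(FPKM + 1) scale, was below 0 for 63 of the 77 genes, against 48.4% of all genes tested. Its median was −0.17 over the 77 genes, with a range from −0.70 to 0.16, and 0.01 over all genes tested, and no member differed by more than 2-fold. The test called 0 of the 77 genes higher and 0 lower in KO at an adjusted p of 0.05 (limma, Benjamini-Hochberg over all genes tested), where 295 genes or 2.21% of those tested were called, 1.21% higher and 1.01% lower. The smallest adjusted p among the members was 0.0653, for Mrps2. At an unadjusted p under 0.05 there were 13 of 77 genes, all of them lower in KO, against 8.6% of all genes tested called lower and 19.2% in either direction. This count moved with the libraries used. Dropping WT replicates 1, 2 and 3 in turn gave 32, 3 and 5 genes, beside 24.9%, 12.6% and 15.5% of all genes tested, and dropping KO replicates 1, 2 and 3 in turn gave 8, 6 and 5, beside 16.2%, 15.6% and 14.7%. All 3 KO values lay below all 3 WT values in 13 genes (background 11.4%), above them in 1 gene, Mrpl32 (background 13.6%), and the groups overlapped in 63. The count above WT was 0 under median-of-ratios scaling (background 12.2%), 3 under quantile normalization (12.2%) and 5 without WT replicate 3 (17.6%). The count below WT was 21 under median-of-ratios scaling (background 13.1%). With the values as deposited, the 14 genes of 77 that did not overlap are a smaller share than the 24.9% of all genes tested whose groups did not overlap. In bulk tissue, fewer cells of a type and less RNA per cell cannot be told apart.

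Summed over the 77 genes, the level was 5202, 6212 and 6734 FPKM in WT and 5456, 5519 and 5147 FPKM in KO. WT averaged 6049 ± 779 (SD, n = 3) and KO 5374 ± 199 (SD, n = 3), so that KO stood at 88.8% of WT. As a share of the library's FPKM this was 1.16% ± 0.0773 (SD, n = 3) in WT and 1.05% ± 0.0323 (SD, n = 3) in KO. WT replicates 2 and 3 lay above the KO libraries, and WT replicate 1 lay within them.

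**Figure D2:**
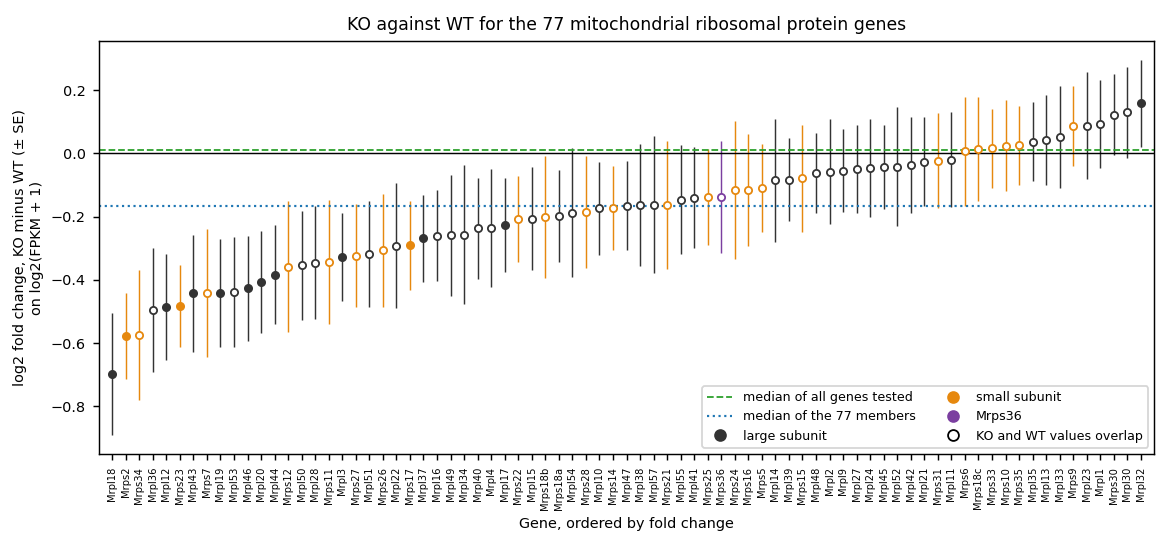
Log2 fold change, KO minus WT, with its SE for each of the 77 genes in order of size, on the log2(FPKM + 1) scale (black large subunit, orange small subunit, purple Mrps36; open circles mark genes whose KO and WT values overlap). The median of the 77 genes (dotted) is −0.17 and that of all genes tested (dashed) 0.01, and 63 of the 77 points lie below 0.

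The structural classes were compared by their medians, with no test between them. The median log2 fold change was −0.17 for the 50 large-subunit genes and −0.17 for the 26 small-subunit genes. Among large-subunit genes it was −0.16 for the 30 classed with bacterial kin and −0.19 for the 20 classed as specific to mitochondria, Mrps18a among them. Among small-subunit genes it was −0.14 for the 16 classed with bacterial kin and −0.20 for the 10 classed as specific to mitochondria, Mrps18b among them. KO lay wholly below WT in 6, 4, 2 and 1 genes of these 4 classes in that order, beside 11.4% of all genes tested. The class medians moved with the WT library left out: in the same order they were −0.26, −0.34, −0.32 and −0.29 without WT replicate 1 and −0.06, −0.11, −0.0088 and −0.15 without WT replicate 3. With libraries corrected for GC content and length they were −0.09, −0.14, −0.16 and −0.26. None of these 4 classes held a gene that passed the test.

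In the small subunit, Mrps2 had the smallest p-value. Mrps2 (chr2:28468066-28471178, plus strand, GRCm38) encodes a protein with bacterial kin, and its promoter is printed above. WT libraries held 79.7, 88.6 and 75.9 FPKM and KO libraries 59.4, 52.5 and 50.9 FPKM. Every KO value was below every WT value, with means of 81.4 ± 6.48 and 54.2 ± 4.51 (SD, n = 3). The log2 fold change was −0.58 ± 0.14 (SE, limma adjusted p = 0.0653), and over the 18 alternative settings it ran from −0.64 to −0.52 with adjusted p from 0.0320 to 0.270. The 1 setting that called it corrected every library for the GC content and length of transcripts (log2 fold change −0.59, limma adjusted p = 0.0320), where 4.23% of all genes were called.

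Mrps23 (chr11:88204388-88211507, plus strand), which encodes a mitochondria-specific protein, was at 83.5, 93.5 and 88.2 FPKM in WT and 67.0, 62.6 and 59.3 FPKM in KO. The groups did not overlap, with means of 88.4 ± 4.96 and 62.9 ± 3.83 (SD, n = 3). The log2 fold change was −0.48 ± 0.13 (SE, limma adjusted p = 0.0917). In Mrps34, named after its values were seen, WT was uneven, at 51.3, 75.8 and 90.7 FPKM, against 51.6, 45.3 and 44.8 FPKM in KO. WT replicate 1 was at the level of KO there and the other WT libraries stood above it (log2 fold change −0.57 ± 0.21 SE, limma adjusted p = 0.181).

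The Mrps18 genes encode 3 homologous proteins, of which Mrps18b and Mrps18c belong to the small subunit and Mrps18a to the large. Mrps18a was at 112, 125 and 141 FPKM in WT and 112, 119 and 98.7 in KO (log2 fold change −0.20, limma adjusted p = 0.497). Mrps18b was at 62.1, 79.4 and 90.5 FPKM in WT and 62.0, 57.0 and 82.7 in KO (−0.20, limma adjusted p = 0.612). Mrps18c was at 137, 136 and 140 FPKM in WT and 142, 168 and 113 in KO (0.01, limma adjusted p = 0.976), and its sign turned negative in 4 of the 18 alternative settings, among them median-of-ratios scaling (−0.0058). The groups overlapped in all 3 genes.

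In the large subunit, Mrpl18 (chr17:12911349-12916345, minus strand) had the most negative fold change of the 77 genes. It encodes a protein with bacterial kin. Its WT values were 132, 159 and 135 FPKM and its KO values 102, 99.2 and 64.9 FPKM. The groups did not overlap, KO replicate 3 was the lowest, and the means were 142 ± 15.0 and 88.7 ± 20.6 (SD, n = 3). The log2 fold change was −0.70 ± 0.19 (SE, limma adjusted p = 0.0985), with adjusted p between 0.0604 and 0.327 over the alternatives.

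Mrpl12 (chr11:120484613-120489065, plus strand) encodes the protein of the stalk, where translation factors dock. Its level was 138, 187 and 202 FPKM in WT against 132, 117 and 122 FPKM in KO. The groups did not overlap, though WT replicate 1 lay only just above KO replicate 1 (log2 fold change −0.49 ± 0.17 SE, limma adjusted p = 0.165). Mrpl20 (chr4:155802878-155809975, plus strand), with bacterial kin, had the same arrangement, with 174, 234 and 237 FPKM in WT and 168, 146 and 168 FPKM in KO (−0.41 ± 0.16 SE, limma adjusted p = 0.217). Mrpl43, whose promoter carries 2 CCGGAAG matches, was at 38.7, 54.2 and 61.9 FPKM in WT and 38.5, 38.6 and 34.1 FPKM in KO (−0.44 ± 0.18 SE, limma adjusted p = 0.238). In Mrpl12, Mrpl20 and Mrpl43 alike, WT replicate 1 stood next to KO and the other WT libraries well above.

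Mrpl19 had the lowest mean, with 12.2, 14.2 and 9.30 FPKM in WT and 8.76, 7.87 and 8.55 FPKM in KO (−0.44 ± 0.17 SE, limma adjusted p = 0.210). In this gene WT replicate 3, and not replicate 1, was the lowest of WT. Mrpl46, a mitochondria-specific protein, was at 35.1, 43.0 and 38.1 FPKM in WT and 31.9, 31.1 and 23.2 FPKM in KO (−0.43, limma adjusted p = 0.207). The remaining genes with KO wholly below WT, listed after their values were seen, were Mrpl3, Mrpl17, Mrpl37, Mrpl44 and Mrps17, with log2 fold changes from −0.38 (Mrpl44) to −0.23 (Mrpl17).

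**Figure D3:**
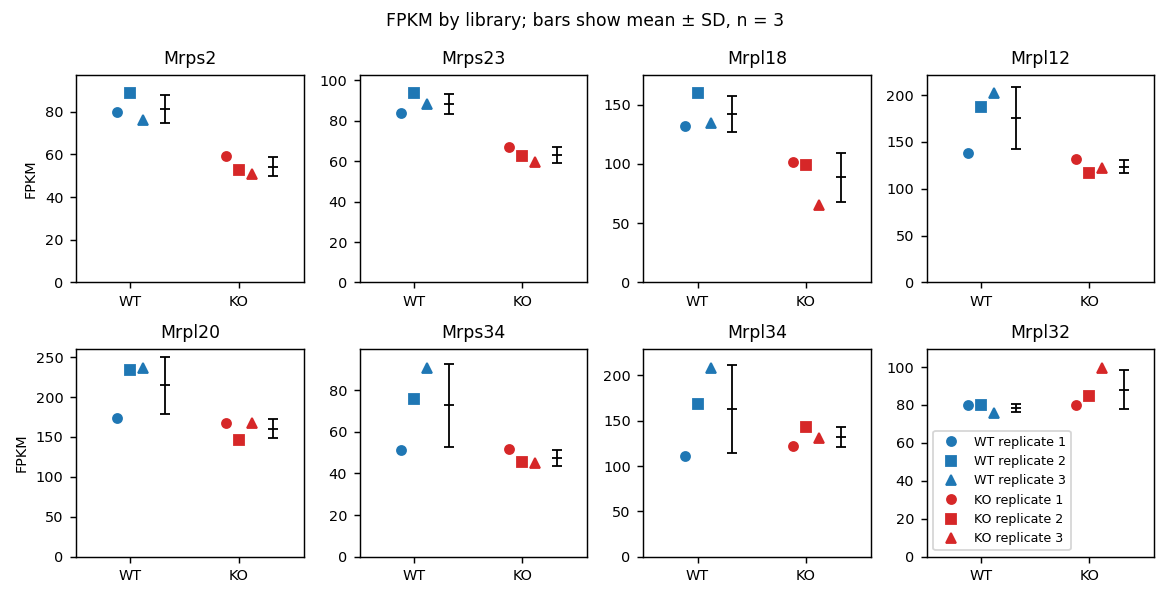
FPKM in each library for 8 of the genes, with the mean ± SD of each group (n = 3) as a bar beside the points; every axis starts at 0. KO lies below WT without overlap in Mrps2, Mrps23, Mrpl18, Mrpl12 and Mrpl20, WT replicate 1 lies among or below the KO values in Mrps34 and Mrpl34, and Mrpl32 has KO above WT.

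A log2 fold change above 0 was found in 14 members. Mrpl32 (chr13:14608184-14613165, minus strand), whose protein is trimmed by a mitochondrial protease before it joins the large subunit, was at 79.8, 79.8 and 75.8 FPKM in WT and 80.0, 84.6 and 99.6 FPKM in KO. KO replicate 1 exceeded the highest WT library by less than 1 FPKM, and the difference did not pass the test (log2 fold change 0.16 ± 0.14 SE, limma adjusted p = 0.566). Mrps30, in the large subunit despite its name, was at 60.8, 63.5 and 63.1 FPKM in WT and 63.1, 70.1 and 71.3 in KO (0.12, limma adjusted p = 0.644). Mrpl30 stood at 0.13 (limma adjusted p = 0.664). The highest-level genes showed little difference in means, with −0.04 for Mrpl42 (limma adjusted p = 0.929), −0.14 for Mrps36 (0.720) and −0.16 for Mrps21 (0.710), and without WT replicate 3 all 3 turned positive (0.07, 0.02 and 0.02).

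The 3 WT libraries differed among themselves more than the KO libraries did. WT replicate 3 held the highest value of the 6 libraries in 44 of the 77 genes, or 57.1%. This was so in 18.0% of all genes tested and in 24.1% of those at 10 FPKM or more on average. The highest value was in WT replicate 2 for 17 members, KO replicate 2 for 8, KO replicate 3 for 5, WT replicate 1 for 2 and KO replicate 1 for 1. WT replicate 1 was the lowest WT library in 62 genes (80.5%, against 41.2% of all genes tested and 43.3% at 10 FPKM or more). WT replicate 3 lay above every KO library in 57 genes, WT replicate 2 in 53 and WT replicate 1 in 18, and WT replicate 1 lay below every KO library in 27. The shares of all genes tested are not given for these counts, so they cannot be read as particular to the members. The median coefficient of variation of a member was 14.1% within WT and 8.29% within KO, and it was larger in WT for 54 genes (70.1%, against 60.5% of the 5987 genes at 10 FPKM or more on average, whose medians were 14.8% and 11.3%). The labels give no batch or date to which these differences could be tied.

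The counts therefore depended on which WT library was kept. Without WT replicate 1, KO lay below WT in 48 of the 77 genes (background 21.8%), 69 had a log2 fold change below 0 (background 49.4%), the median was −0.28, and 3 genes passed the test, all lower in KO (1.78% of all genes were called lower). These were Mrpl12 (log2 fold change −0.65, limma adjusted p = 0.0444), Mrps34 (−0.80, limma adjusted p = 0.0378) and Mrpl36 (−0.71, limma adjusted p = 0.0413), the last 2 named after their values were seen. With all 6 libraries none of these 3 passed, with adjusted p of 0.165, 0.181 and 0.214. Without WT replicate 3 the median was −0.08, 47 genes had a log2 fold change below 0 (background 49.8%), and KO lay below WT in 17 (background 16.8%). Without KO replicate 1, the library with few muscle transcripts, the median was −0.19 and KO lay below WT in 19 (background 16.1%). WT replicate 3 was also the library with the high erythroid markers, and the macrophage marker sums of KO replicates 2 and 3 lay above those of WT. The part of these cell types in the members' levels was not tested.

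The members' differences between WT libraries moved with the GC content of the transcript. The log2 difference of WT replicate 3 from WT replicate 1 had a median of 0.33 over the 77 genes and −0.01 over the 13172 tested genes with a transcript sequence. Across the 77 genes it increased with GC content (Spearman rho 0.63) and declined with transcript length (rho −0.50), and across all 13172 genes the values were 0.63 and −0.42. These are correlations across genes of the same pair of libraries, and genes are not independent replicates. The 26 members with the highest GC content had a median difference of 0.61, the 25 in the middle 0.27 and the 26 with the lowest 0.11, against 0.26, 0.00056 and −0.30 for all genes in the same GC ranges. The largest WT replicate 3 to replicate 1 ratios, read off after the values were seen, were 1.93 for Mrpl57, 1.88 for Mrps24 and 1.87 for Mrpl34, and the smallest were 0.752 for Mrpl50 and 0.764 for Mrpl19. Members are short, with a median transcript of 1223 nt against 2790.5 nt, and near the rest in GC content, with a median of 50.9% against 50.3%.

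**Figure D4:**
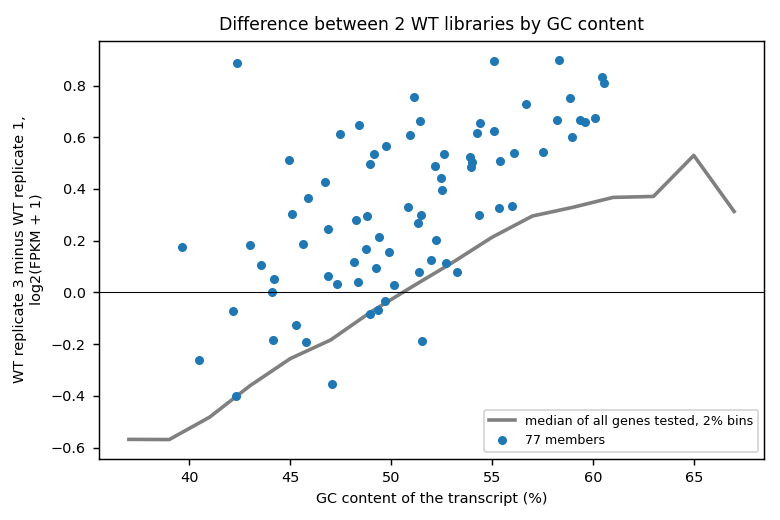
Log2 difference of WT replicate 3 from WT replicate 1, on the log2(FPKM + 1) scale, against the GC content of the transcript for the 77 genes (points) and as the median of all genes tested in bins of GC content (line). Both climb with GC content, and most points lie above the line, with a median of 0.33 against −0.01.

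Between genotypes the relation to GC content was weaker, with a Spearman rho of −0.28 across the 77 genes and −0.27 across the 13172. The medians of the members' log2 fold changes were −0.13, −0.17 and −0.20 from the low to the high GC group, against 0.09, 0.01 and −0.07 for all genes. After correction of every library for GC content and length, a setting added after the data were seen, the members' median was −0.15, KO lay below WT in 21 genes (background 15.1%), and Mrps2 was the gene that passed.

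The rule by symbol missed 6 subunits that carry other names, and these were compared in the same way. None of the 6 passed the test, the groups overlapped in all 6, and their median log2 fold change was −0.19. Gadd45gip1, of the large subunit, was at 25.6, 35.8 and 38.4 FPKM in WT and 27.0, 25.2 and 18.9 in KO (−0.47, limma adjusted p = 0.245). Ptcd3, an RNA-binding protein of the small subunit, had a log2 fold change of −0.34 (limma adjusted p = 0.342). Ict1, a peptidyl-tRNA hydrolase built into the large subunit, had −0.27 (0.419) and Dap3, a GTP-binding protein of the small subunit, −0.10 (0.732). The small-subunit proteins Aurkaip1 (−0.05, 0.935) and Chchd1 (−0.0096, 0.984) changed sign in 5 and 6 of the 18 alternatives.

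Factors that build the ribosome were mixed. Of 27 assembly factors 1 fell and 0 rose, beside 1.01% and 1.21% of all genes tested, and their median was −0.04. KO lay wholly below WT in 7 of the 27 (background 11.4%) and wholly above in 3 (background 13.6%). The gene that fell was Mrm2, a methyltransferase that modifies the large ribosomal RNA of mitochondria, at 5.89, 6.94 and 6.51 FPKM in WT and 3.27, 2.83 and 2.26 FPKM in KO (log2 fold change −0.98 ± 0.16 SE, limma adjusted p = 0.0258). No KO value reached the WT values. It was called in 12 of the 17 alternatives that gave a value, and not without the filter (limma adjusted p = 0.0803) or without WT replicate 2 (0.117), WT replicate 3 (0.0925), KO replicate 2 (0.0614) or KO replicate 3 (0.0755). Mterf4, which brings a methyltransferase to the large subunit, was at 11.7, 11.8 and 12.5 FPKM in WT and 19.6, 16.8 and 28.1 in KO (0.76, limma adjusted p = 0.0764).

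Of 15 genes for translation factors and associated proteins (Letm1, Oxa1l and Tmem70 among them) none passed the test, with a median of −0.22. KO lay below WT in 4 of them (background 11.4%) and above in 1 (background 13.6%). Tsfm, the elongation factor that recharges Tufm, was at 18.1, 23.3 and 23.4 FPKM in WT and 16.2, 13.9 and 13.6 in KO (−0.53, limma adjusted p = 0.115). Letm1, an ion exchanger of the inner membrane that binds the ribosome, was at 55.4, 85.6 and 91.6 FPKM in WT and 58.9, 37.3 and 50.7 in KO (−0.64, limma adjusted p = 0.182).

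The 22 genes that charge mitochondrial tRNAs had a median of −0.16, and 1 fell and 0 rose, beside 1.01% and 1.21% of all genes tested. KO lay wholly below WT in 4 of the 22 (background 11.4%) and wholly above in 0 (background 13.6%). The gene that fell was Gars, the glycyl-tRNA synthetase of both cytosol and mitochondria, at 170, 186 and 168 FPKM in WT and 106, 105 and 115 FPKM in KO (log2 fold change −0.68 ± 0.13 SE, limma adjusted p = 0.0391). All KO values were well below WT. It was called in 9 of 18 alternatives, and leaving out a library ended the call for WT replicate 2 (limma adjusted p = 0.180), WT replicate 3 (0.0951), KO replicate 1 (0.112), KO replicate 2 (0.0898) and KO replicate 3 (0.0905). The call was also lost without the filter (limma adjusted p = 0.0707), with a common sum (0.0529), with the replicate block (0.0759) and with the block and the GC and length correction together (0.0511). Mars2, the mitochondrial methionyl-tRNA synthetase, was at 9.93, 7.77 and 5.69 FPKM in WT and 4.67, 4.63 and 3.96 in KO (−0.67, limma adjusted p = 0.109). It was called lower with the GC and length correction (−0.90, limma adjusted p = 0.0107, or 0.0347 with the block). The summed level of the 22 genes was 507 to 561 FPKM in WT and 398 to 457 in KO, and this separation rested on Gars: without it the other 21 genes summed to 337, 375 and 349 FPKM in WT and 339, 293 and 342 FPKM in KO, which overlap.

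Of 25 genes that copy, transcribe or process mitochondrial DNA and RNA none passed, with a median of −0.11. Mterf1a, a transcription termination factor, had a log2 fold change of 0.55 (limma adjusted p = 0.134) and Fastkd5, an RNA-processing factor, −0.69 (limma adjusted p = 0.143).

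Regulators of mitochondrial biogenesis showed no common direction. None of the 10 tested passed, and their median was −0.04. Esrra, the estrogen-related receptor that drives many nuclear genes for mitochondrial proteins, was at 47.1, 58.8 and 65.3 FPKM in WT and 37.7, 28.3 and 38.4 FPKM in KO. The groups did not overlap (−0.70, limma adjusted p = 0.0813, and 0.0469 without WT replicate 1). Its coactivator Ppargc1a was at 22.0, 20.8 and 14.6 FPKM in WT and 27.4, 21.0 and 35.9 in KO (0.52, limma adjusted p = 0.251), while the related Ppargc1b had −0.47 (0.315) and Pprc1 −0.08 (0.822, with a value above 0 without KO replicate 1). The subunits of GABP, a factor that as a complex binds the CCGGAAG core, had 0.22 (Gabpa, limma adjusted p = 0.621) and 0.54 (Gabpb1, 0.168). Nrf1 was level in means, at 7.24 ± 1.06 and 7.22 ± 1.04 FPKM (SD, n = 3; limma adjusted p = 0.998). Yy1 had 0.12 (0.756), Myc −0.47 (0.127) and Esrrg −0.08 (0.904, with a value above 0 in 2 alternatives). Esrrb, at 0.12 FPKM or below, was not tested.

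The partners of the mitochondrial ribosome's products and its cytosolic counterpart were set beside the members. Of 72 nuclear-encoded respiratory chain and ATP synthase genes none passed, with a median of −0.07, and Ndufb7 (−0.46, limma adjusted p = 0.270) and Ndufa11 (−0.45, 0.343), both of complex I, had the smallest p-values. The summed level of the 72 was 49820, 57745 and 73052 FPKM in WT and 57849, 59472 and 55541 in KO. The climb from WT replicate 1 to WT replicate 3 was thus not particular to the members. Of 86 cytosolic ribosomal protein genes tested none passed, and the median was 0.12. A log2 fold change above 0 was found in 71 of the 86, against 6885 of the 13331 genes tested. Rpl7l1, a ribosomal protein relative, had −0.59 (limma adjusted p = 0.0559, with calls under a filter at 5 FPKM, 0.0456, and under the GC and length correction, 0.0246) and Rpl22l1, a paralog of Rpl22, 0.37 (0.334). The summed level of the cytosolic genes was 52032, 54538 and 57192 FPKM in WT and 52665, 69335 and 57552 in KO, so KO replicate 2 stood above the rest. Cytosolic ribosomal protein genes have many pseudogenes, and how shared reads were counted is not stated.

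**Figure D5:**
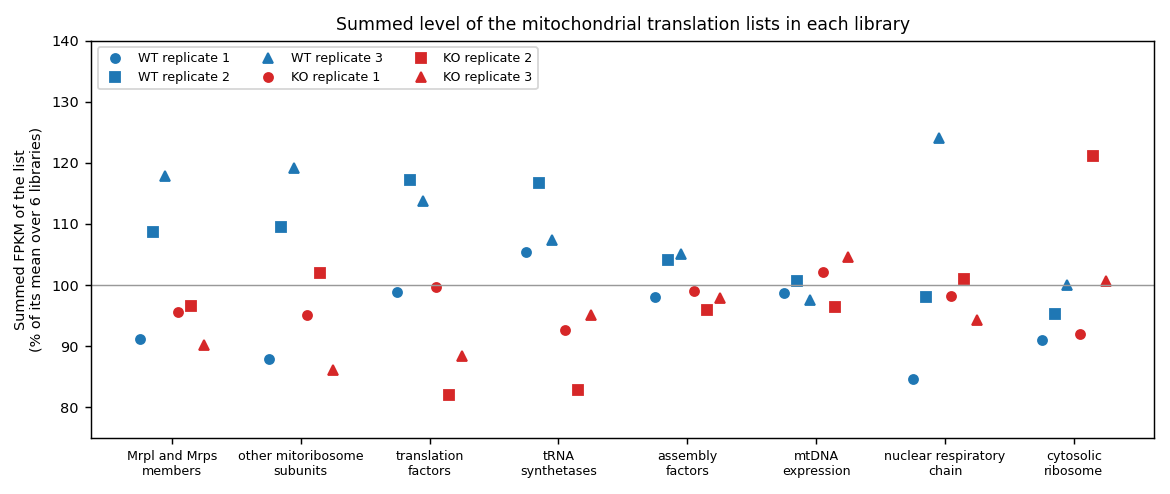
Summed FPKM of each gene list in each library, as a percentage of the list's mean over the 6 libraries (blue WT, red KO; the axis does not start at 0). The list labelled translation factors also holds associated proteins. The sums of the 77 members run from 5147 to 6734 FPKM, WT replicate 1 lies among the KO libraries for them, and the tRNA synthetase sums of WT (507 to 561 FPKM) lie above those of KO (398 to 457 FPKM) but overlap them once Gars is left out (337 to 375 and 293 to 342 FPKM).

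The members' places in the genome were examined because neighbouring genes can share a promoter. The 77 genes lay on 17 chromosomes, with 10 on chromosome 11, 8 on chromosome 17 and 7 on chromosome 6. A protein-coding gene on the opposite strand started within 1000 bases for 33 of the 77 genes (42.9%), against 1996 of 12466 protein-coding genes tested and placed (16.0%). Since Mrpl46 and Mrps11 are each other's partner, these are 32 different pairs, and the ends overlapped in 14 of them. The partners included Mrps11 for Mrpl46, whose ends overlap by 412 bases, Tcp1 for Mrpl18 and Psma2 for Mrpl32. Of the 28 tested partners that are not members themselves none passed, and the median was −0.08. A log2 fold change below 0 was found in 19 of the 28, against 48.4% of all genes tested. The members with such a partner had a median of −0.19 and the 44 without −0.15.

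Partners, named here after their values were seen, differed in how they stood beside the member. Tcp1, a chaperonin subunit, starts head to head with Mrpl18 and was at 165 ± 18.4 FPKM in WT and 153 ± 15.1 in KO (SD, n = 3; log2 fold change −0.11, limma adjusted p = 0.738), beside −0.70 for Mrpl18. Psma2, a proteasome subunit that starts 75 bases from Mrpl32, had −0.07 beside 0.16. Sars2, the mitochondrial seryl-tRNA synthetase, starts 172 bases from Mrps12 and had −0.61 (limma adjusted p = 0.143) beside −0.36. Eme2, of a DNA repair nuclease, starts 29 bases from Mrps34 and had −0.71 (limma adjusted p = 0.0764) beside −0.57. Ptcd2, an RNA-processing factor of mitochondria, starts 81 bases from Mrps27 and had −0.40 (limma adjusted p = 0.212) beside −0.32. In the table, 26 members (33.8%) overlap another protein-coding gene, against 25.1% of protein-coding genes tested and placed. Whether reads were counted by strand is not stated, so reads in these overlaps cannot be assigned with certainty. Among them are Mrpl18 with Tcp1, Mrpl46 with Mrps11, Mrpl43 with Twnk, Mrpl19 with Gcfc2, Mrps34 with Nme3 and Mrpl36 with Ndufs6. A limma unadjusted p under 0.05 was found in 8 of the 26 and in 5 of the 51 members without overlap. KO lay wholly below WT in 5 and 8 genes of these groups, beside 11.4% of all genes tested. The role of the overlaps was not tested.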

How the data were processed

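RNA from 6 libraries, 3 WT and 3 KO by their titles, was analysed. The deposited table holds FPKM values per the file headers, rounded to 2 decimals. HISAT2 2.0.4, Bowtie2 2.2.5 and the build mm10 are named in the submitters' processing notes, which give no order or role here. The annotation and the treatment of strand and shared reads are not given in the sources used here. No value column was left out.

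Because FPKM are no counts, log2(FPKM + 1) was tested with limma 3.58.1 in R 4.3.3 (lmFit, eBayes with an intensity trend, no covariates) on the 13331 genes that averaged 0.5 FPKM or more, with Benjamini-Hochberg adjustment over all of them at 0.05. The log2(FPKM + 1) scale understates changes of low genes. In simulated data with 200 of 13331 genes changed by 1.5 (log2), 177 were called, all with the right sign, with 7 unchanged genes. With no change, 0 were called. That change was larger than any seen in a member, and the noise was drawn for each gene on its own, without a GC trend. The simulation therefore does not tell how often changes of the members' size would be called. Depth was estimated from steps of whole reads in low values of transcripts of 500 to 1300 nt, where 77.2% to 81.6% of the 505 to 543 values of a library lay within 0.2 of a whole number, so no count test was run.

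The members and lists were chosen with earlier results of these data known, so lists are given by counts and medians. Of the symbols starting as cytosolic ribosomal proteins, kinases, a binding protein and pseudogenes were left out. The text names, by rule, members past the threshold, the 8 largest differences in each direction among members whose groups do not overlap, the 4 highest and 4 lowest means, the Mrps18 trio, Mrpl12, Mrps30, Mrps36, the 2 smallest p-values of each list, all other ribosome subunits and regulators, and Fstl1. Positions, lengths and GC content came from GENCODE vM21 (GRCm38), and promoters from RefSeq (GRCm38.p6). In 72 of the 74 promoter windows the last 20 bases lay in a transcript of the gene. The alternatives were other pseudocounts, filters, scalings, eBayes options, a replicate block and leaving out each library, plus 2 added after the data were seen, which corrected every library for a spline trend with transcript GC and length, and the tRNA synthetase sum without Gars.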

Additional observations from a re-analysis of the deposited data

How the results depend on the processing

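Over the 18 alternatives, 0 members were called higher in every one, and the members' median log2 fold change ran from −0.28 (without WT replicate 1) to −0.08 (without WT replicate 3), below 0 throughout. Members called lower numbered 0, except 1 with the trend with GC content and length removed and 0 to 3 when 1 library was left out, the 3 without WT replicate 1. Members with KO wholly below WT numbered 13 (11.4% of all genes tested), 12 under quantile normalization and 18 with a common sum. They numbered 21 under median-of-ratios scaling (13.1%), 21 with the GC and length trend removed (15.1%) and 21 with that trend removed and the replicate block. Leaving out WT replicates 1, 2 and 3 in turn gave 48 (21.8%), 13 and 17 (16.8%). Leaving out KO replicates 1, 2 and 3 gave 19 (16.1%), 17 and 15. Counts without a share of all genes beside them cannot be read as particular to the members. The genes called in all numbered 295, and 35 without a filter, 191 with a common sum, 557 with the GC and length trend removed, and 34 (WT replicate 3) to 444 (WT replicate 1) with 1 library left out (46 for WT replicate 2, 135 for KO replicate 1, 122 for KO replicate 2, 87 for KO replicate 3). The median of all genes tested, 0.01, turned negative under quantile normalization (−0.00638), median-of-ratios scaling (−0.00542), the 5 FPKM filter (−0.00384) and the GC and length correction without and with the block (−0.00449 in both), and ran from −0.0114 (KO replicate 2) to 0.0341 (KO replicate 3) with 1 library left out. The cause was not tested.

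With the replicate number as a block, 167 genes and 0 members were called, and 135 of the 167 were among the 295. Same-numbered libraries deviated together only weakly (correlations 0.068, 0.043 and 0.043 across genes). These lay under the 0.1 set beforehand for a pairing, so the main test used none. Whether same-numbered libraries shared a batch or date was not tested. With 3 libraries a group and a sex that coincides with genotype, differences of the size seen here, a median of 0.17 (log2) beside a median SE of 0.16, could not be resolved gene by gene.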
